A study of Mus musculus with 53 samples.

Results

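The simple epithelial keratins Krt8, Krt18 and Krt19 were followed by name through mouse embryonic stem cells with altered levels of the T-box transcription factor Tbx3. They are 3 of the 11647 genes in the bulk RNA table and 3 of the 23235 genes in the single-cell table. They were picked because they stood out in an earlier reading of the cells with a hairpin against Tbx3, so their values in that comparison are a description and carry no test.

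Keratins are intermediate filament proteins that assemble as obligate pairs of a type II and a type I chain. Krt8 is a type II chain, and Krt18 and Krt19 are the type I chains it most often pairs with in simple, single-layered epithelia. In the early mouse embryo these keratins are best known as the first intermediate filaments to be laid down, in trophectoderm, and they are also made in other simple epithelia, while undifferentiated embryonic stem cells are known for low levels of them.

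All cells were of the R1 line of mouse embryonic stem cells, grown with serum and LIF and without feeder cells. The bulk libraries were from cells with 2 intact Tbx3 alleles (+/+), with 1 intact allele (+/N), with none (N/N), and from cells carrying a hairpin against luciferase (shLuc, the control) or against Tbx3 (shTbx3). Each of these 5 groups had 1 library, so none of the differences below was checked by replicates and no p-value can be given. The single cells were 45 sorted SSEA1+DAPI- cells with 1 pooled library, SSEA1 being a surface antigen of mouse pluripotent cells and DAPI a dye taken up by dead ones. Binding sites of Tbx3 were from chromatin pulled down on streptavidin beads through the tagged protein bfTbx3, in N/N cells that also carried the biotin ligase BirA, with N/N cells carrying BirA alone as the control. The part of Tbx3 that was deleted, the number of clones behind each line and the way the hairpins were delivered are not given by the sources at hand.

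Values are FPKM, fragments scaled by the length of the transcript and the size of the library, so levels of different genes in 1 library can be compared. Fragment totals are not given in the sources, so counting error is unknown for the bulk values. The targeted gene stood at 44.4 FPKM in +/+, 22.5 in +/N, 15.1 in N/N, 13.8 in shLuc and 5.09 in shTbx3. Among pluripotency markers, 10 of 11 listed genes had a value in the bulk table and all 10 reached 1 FPKM in every library, with summed levels between 2700 FPKM (+/N) and 4081 (shTbx3). The allele libraries and the hairpin libraries differed widely. Between the control libraries, shLuc against +/+, 5.68% of 11568 genes were at least 2-fold higher and 5.88% at least 2-fold lower. These were 657 and 680 genes, or 438 and 826 with small RNA genes left out of the scaling and of the count. Of the summed FPKM, small RNA genes took 19.6% to 22.7% in the allele libraries and 5.43% to 7.24% in the hairpin libraries, and their part in the keratin values was tested only by leaving them out of the scaling.

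Krt8 and Krt18 lie next to each other and Krt19 is on another chromosome. In the mm9 annotation Krt8 (ENSMUSG00000049382.9) spans chr15:101827142-101834773 on the minus strand and Krt18 (ENSMUSG00000023043.6) spans chr15:101858647-101862457 on the plus strand. Their starts face away from each other across 23874 bp. Krt19 (ENSMUSG00000020911.8) spans chr11:100002124-100009979 on the minus strand, among the type I keratins. The promoters of Krt8 and Krt18 are shown because the pair shares a locus and because the sequence gives the letters around each start. They are RefSeq sequences of GRCm38.p6, each of 300 bases on the strand of the gene, 250 before the annotated start and 50 after it, at chr15:102004293-102004592 for Krt8 and chr15:102027966-102028265 for Krt18. Of the 3 keratins, 2 (Krt8 and Krt18, not Krt19) matched an entry in the promoter table. Capitals mark the matches to the motifs searched.
Krt8: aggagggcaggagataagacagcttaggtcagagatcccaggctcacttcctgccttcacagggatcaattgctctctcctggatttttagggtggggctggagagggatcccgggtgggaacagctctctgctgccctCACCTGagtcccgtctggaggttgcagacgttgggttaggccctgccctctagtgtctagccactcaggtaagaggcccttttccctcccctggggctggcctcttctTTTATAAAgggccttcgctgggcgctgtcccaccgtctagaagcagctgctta
Krt18: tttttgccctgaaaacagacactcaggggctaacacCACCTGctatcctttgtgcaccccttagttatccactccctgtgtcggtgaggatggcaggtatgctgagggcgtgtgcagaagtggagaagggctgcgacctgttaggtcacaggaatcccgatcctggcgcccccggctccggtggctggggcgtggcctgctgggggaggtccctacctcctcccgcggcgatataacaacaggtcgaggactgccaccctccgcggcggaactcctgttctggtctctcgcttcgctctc

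Exact matches were looked for on both strands to 7 motifs: GGTGTGA (T-box), TGANTCA (AP-1), GGGCGG (GC box), TATAAA (the core promoter box), GGAATG (TEAD), AACCNGGTT (Grhl) and CAGGTG (the E-box bound by Snail and Zeb repressors). The Krt8 promoter held TATAAA on both strands, overlapping as TTTATAAA, with the first letter 3 bases before the annotated start, and TATAAA was present in 13.6% of 32851 promoters of this length. Both promoters held 1 match to CAGGTG, read as CACCTG on the strand shown, beginning 111 bases before the Krt8 start and 214 bases before the Krt18 start. That motif was present in 20.2% of all promoters, and neither match is a measured site. The other motifs gave no match in either window, and they were present in 3.98% (GGTGTGA), 7.81% (TGANTCA), 35.7% (GGGCGG), 14.7% (GGAATG) and 0.271% (AACCNGGTT) of all promoters. The GC content was 58% for Krt8 and 61.3% for Krt18.

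Krt8, the type II chain, stood at 6.23 FPKM in +/+, 3.30 in +/N, 5.36 in N/N, 10.3 in shLuc and 167 in shTbx3. It was the lowest of the 3 keratins in each allele library, where between 22.2% and 36.9% of all genes were lower, and the highest of the 3 in shTbx3, where 97.0% of genes were lower. Krt18, a type I partner, stood at 18.6 FPKM in +/+, 16.4 in +/N, 28.4 in N/N, 13.4 in shLuc and 140.2 in shTbx3. Krt19, the other type I partner and a keratin with a very short tail domain, stood at 15.2 FPKM in +/+, 16.9 in +/N, 19.7 in N/N, 8.07 in shLuc and 100.2 in shTbx3. For all 3 genes shTbx3 was the highest library and stood apart from the other 4, while the order of those 4 differed from gene to gene. Krt8 was second highest in shLuc, whereas Krt18 and Krt19 were lowest there. With 1 library a group it cannot be said which neighbours in these orders differ beyond the spread between samples. In a bulk library more cells with a keratin and more keratin RNA per cell cannot be told apart.

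**Figure D1:**
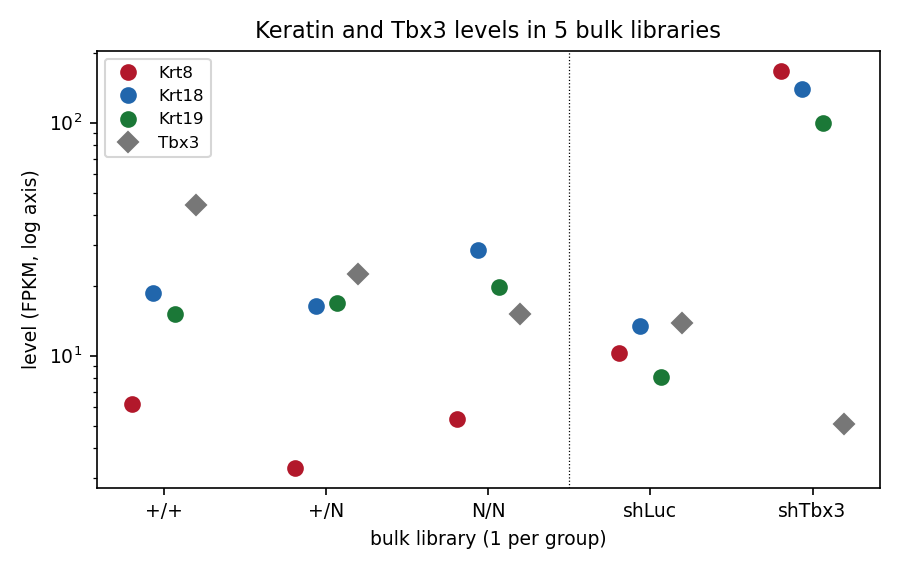
Levels of Krt8, Krt18, Krt19 (circles) and Tbx3 (diamonds) in FPKM (log axis) in the 5 bulk libraries, with 1 point per library and no error bar because each group has 1 library. The keratins in shTbx3, at 167, 140.2 and 100.2 FPKM, stand above those in the other libraries, which lie between 3.30 and 28.4 FPKM.

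The balance between the chains differed between libraries. The level of Krt8 divided by the summed level of Krt18 and Krt19 was 0.184 in +/+, 0.0990 in +/N, 0.111 in N/N, 0.479 in shLuc and 0.696 in shTbx3. Krt18 and Krt19 together were thus higher than Krt8 at the RNA level in every library, and this ratio was highest in shTbx3. Against Krt18 alone, Krt8 was higher in shTbx3 (ratio 1.19) and lower in shLuc (0.768) and the allele libraries. Other keratins with a value, Krt7, Krt10, Krt17 and Krt42, are not in these sums. The ratio of Krt18 to Krt19 moved in a narrower range, 1.23 in +/+, 0.972 in +/N, 1.44 in N/N, 1.66 in shLuc and 1.40 in shTbx3. Together the 3 keratins made up 0.0117% of the summed FPKM in +/+, 0.0111% in +/N, 0.0151% in N/N, 0.00925% in shLuc and 0.104% in shTbx3.

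The Krt8 level is the least certain of the 3, because the mm9 genome holds a near-identical copy of its transcript. Of 1780 overlapping words of 26 bases in the 1805-base Krt8 transcript, 71.1% were also found elsewhere in the genome. A single copy at chr7:24142113-24143830, which overlaps the annotated gene Nlrp4e, held 70.3% of the words. Of the 1706 windows of 100 bases in the Krt8 transcript, 501 (29.4%) were identical there. For Krt18, 19.7% of words were found elsewhere and 14.0% lay in 1 copy at chr13:118246646-118247867, outside annotated genes, with 0 windows of 100 bases identical. For Krt19 only 2.32% of words were found elsewhere. Bulk reads were 26 or 100 bp long, and the sources at hand do not tie either length to a library. How reads shared with a copy were assigned is not given either, and their part in the Krt8 values and in the Krt8 ratios above was not tested.

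The comparison of the hairpins asked what a lower Tbx3 level goes with. All 3 keratins were higher in shTbx3 than in shLuc, with FPKM ratios of 16.3 for Krt8, 10.5 for Krt18 and 12.4 for Krt19. On the log2(FPKM + 1) scale, used for all differences below and which shrinks those of low genes, the differences were 3.90 for Krt8, 3.29 for Krt18 and 3.48 for Krt19. They ranked 12th, 17th and 13th among the 11342 genes that reached 1 FPKM in one of the libraries or both. All 3 keratins were thus at least 2-fold higher, a call met by 2.81% of genes in that direction and by 0.987% in the other (319 and 112 genes), and since the keratins were chosen from this contrast nothing is read from their count. Among genes that reached 5 FPKM in both, the median was itself higher in shTbx3 by a log2 of 0.16, and relative to it the keratin differences were 3.74, 3.13 and 3.32. With that median set to 0, 219 genes passed 2-fold upward and 171 downward. With small RNA genes left out of the scaling and of the count, 181 and 154 did.

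The allele libraries were compared in the same way. In N/N against +/+, Krt18 was higher by a log2 of 0.58 and Krt19 by 0.36, and Krt8 differed by -0.19. None of the 3 reached 2-fold, a call met upward by 1.37% and downward by 1.92% of 11478 genes. Ordered from the highest difference, Krt18 ranked 637, Krt19 ranked 1447 and Krt8 ranked 7905. The N/N library held 34.0% of the Tbx3 level of +/+, and shTbx3 held 36.9% of that of shLuc. The keratins were chosen on the hairpin libraries, so no contrast between the sets is read from their differences. The starting levels of Tbx3 in the sets also differed, and what the Tbx3 reads in N/N stand for was not tested.

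With 1 targeted allele, +/N against +/+, the type II chain was lower and the type I chains were near their +/+ level. The differences were -0.75 for Krt8, -0.17 for Krt18 and 0.15 for Krt19. None of the 3 reached 2-fold, where 0.698% of 11459 genes were that much higher and 1.21% that much lower. These were 80 and 139 genes, or 106 and 118 with the median of -0.12 set to 0. They were 75 and 70 with small RNA genes left out of the scaling and of the count. Krt8 nevertheless ranked 287 from the lowest. In N/N against +/N all 3 were higher, Krt18 by a log2 of 0.75 (64th of 11362), Krt8 by 0.57 (121st) and Krt19 by 0.21 (2110th). Again none of the keratins reached 2-fold, a call met by 0.317% of genes upward and 0.308% downward. These were 36 and 35 genes, or 5 and 7 with small RNA genes left out of the scaling and of the count. The 3 allele comparisons share libraries, so they are not separate evidence.

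Between the control libraries the keratins differed in opposite directions. Krt8 was higher in shLuc than in +/+ by a log2 of 0.64, while Krt18 differed by -0.45 and Krt19 by -0.83. None reached 2-fold on this scaling, but Krt19 did (-1.02) when libraries were scaled without the small RNA genes. The size of the gap between shTbx3 and shLuc thus rests on a control in which Krt18 and Krt19 read lower than in any allele library. Set against +/+ in place of shLuc, the shTbx3 levels of 167, 140.2 and 100.2 FPKM would face 6.23, 18.6 and 15.2 FPKM.

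**Figure D2:**
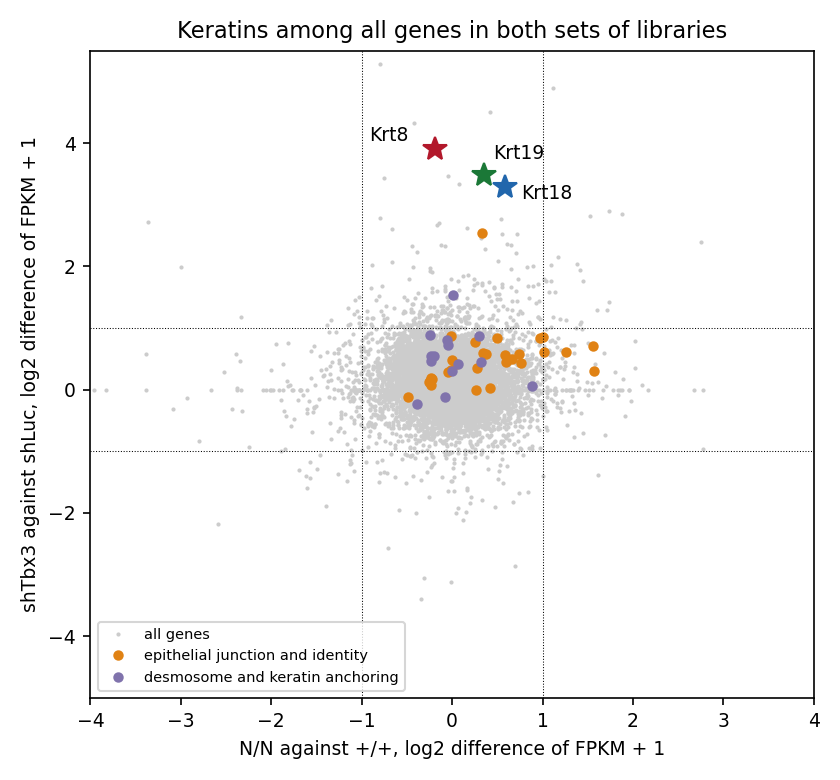
Log2 difference of FPKM + 1 in N/N against +/+ (horizontal) and in shTbx3 against shLuc (vertical), with 1 point per gene, the 3 keratins as stars, epithelial junction and desmosome genes coloured, and dotted lines at 2-fold. 35 of 11647 genes lie outside the plotted range; Krt8, Krt18 and Krt19 lie at 3.90, 3.29 and 3.48 vertically and within the lines at -0.19, 0.58 and 0.36 horizontally.

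Few other keratins had a value in the bulk table. They were Krt7, a type II chain of simple epithelia, the type I chains Krt17, Krt42 and Krt10, and the keratinocyte-associated proteins Krtcap2 and Krtcap3, which are not keratins. Krt7 stood at 3.39 FPKM in +/+, 4.54 in +/N, 6.79 in N/N, 1.46 in shLuc and 8.81 in shTbx3. Like Krt18 and Krt19 it was lowest in shLuc and highest in shTbx3, and it was past 2-fold between the hairpin libraries. Krt17, a keratin of stratified epithelia and hair follicles, stood at 9.86, 7.20, 7.83, 9.77 and 29.2 FPKM in the same order of libraries, a hairpin difference of 1.49. Krt42 (0.71), Krt10 (0.40), Krtcap2 (0.67) and Krtcap3 (0.42) did not reach 2-fold.

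Among the genes whose profile over the 5 libraries was most like each keratin, Gbp2 stood near both Krt18 and Krt19, and the 5 nearest to Krt8 were others. Likeness was the root mean square difference of log2(FPKM + 1) after each gene was centred on its own mean, over 10538 genes and 5 libraries, and shTbx3 weighs heavily in it. For Krt8 the most alike were T (0.45), the streak factor Brachyury, followed by Sfn (0.51), an epithelial 14-3-3 protein, Fgf8 (0.56), Igfbp3 (0.66) and Cyp26a1 (0.82), against a median of 1.82 over all genes. For Krt18 they included Krt19 (0.24), the guanylate-binding protein Gbp2 (0.27), Wnt3 (0.33) and Gbp1 (0.35), against a median of 1.14. For Krt19 they included Krt18 (0.24), Rnaset2b (0.33), Gbp2 (0.33) and Ntn1 (0.34), against a median of 1.13. Krt18, the genomic neighbour of Krt8, was 11th in the Krt8 order (0.96) and Krt19 was 23rd (1.11). In the other direction Krt8 was far down, 737th in the Krt18 order and 4458th in the Krt19 order. Its difference from Krt19 was thus near the median of 1.13 over all genes. Krt18 and Krt19 were each first in the other's order, which draws on the shTbx3 values they were chosen by and is a description only.

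Genes of the junctions that keratin filaments attach to are counted next, with the share of all genes past 2-fold in shTbx3 against shLuc (2.81% higher and 0.987% lower) and their median of 0.13 as the background for this and the following lists. Of 19 listed genes for desmosomes and keratin anchoring, 14 had a value in the bulk table and 1 was at least 2-fold higher in shTbx3 and 0 lower, with a median of 0.51 beside 0.13 over all genes. That gene was Dsp, desmoplakin, which links keratins to the desmosome, at 5.17 FPKM in shLuc and 17.0 in shTbx3. The linkers Plec (7.48 and 14.6 FPKM) and Jup (28.3 and 50.3) and the desmosomal protein Perp (10.1 and 19.3) were next and did not reach 2-fold. In N/N against +/+ the list had 0 genes past 2-fold in either direction and a median of -0.05, where 1.37% of all genes were higher and 1.92% lower with a median of -0.03, and its largest difference was that of the desmosomal plaque protein Pkp2 (20.03 FPKM in +/+ and 37.7 in N/N).

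Epithelial junction and identity genes were higher in N/N for several named members. Of 33 listed genes 31 had a value. In shTbx3 against shLuc their median was 0.45 beside 0.13 over all genes, and 0 were at least 2-fold lower (0.987% of all genes). Of the 31, 29 were above 0, but the median of all genes was above 0 too. The share of all genes above 0 was not taken. The polarity protein Pard6b (7.17 FPKM in shLuc and 13.9 in shTbx3) and the protease Prss8 (6.85 and 13.1) did not reach 2-fold. In N/N against +/+ the median of the list was 0.33 beside -0.03 over all genes. Of the 31, 5 were at least 2-fold higher in N/N and 0 lower (1.37% and 1.92% of all genes). They were Esrp1, an epithelial splicing factor (6.39 FPKM in +/+ and 20.998 in N/N), Rab25, an epithelial trafficking GTPase (3.49 and 12.2), and the tight junction claudins Cldn3 (11.9 and 29.8), Cldn7 (14.3 and 29.9) and Cldn4 (106 and 213). Whether the lists differ between the sets was not tested.

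Other intermediate filaments had several members past 2-fold between the hairpin libraries. Of 15 listed genes 13 had a value, 5 were at least 2-fold higher in shTbx3 and 0 lower (2.81% and 0.987% of all genes), and the median was 0.52 beside 0.13 over all genes. The neurofilament genes Nefl (6.06 FPKM in shLuc and 39.9 in shTbx3), Ina (11.8 and 39.7) and Nefm (0.138 and 2.59) led, followed by Vim, vimentin (44.9 and 126), the filament of mesenchymal cells, and Nes, nestin (5.21 and 14.4). Of these 13 genes, 0 were at least 2-fold higher in N/N than in +/+ and 1 was lower (1.37% and 1.92% of all genes). That gene was Nefh, at 7.63 FPKM in +/+ and 3.18 in N/N. Among genes of mesenchymal transition 8 of 16 had a value. Of these, 2 were at least 2-fold higher in shTbx3 and 0 lower, with a median of 0.82. They were Vim, and the repressor Snai1 at 0.647 FPKM in shLuc and 4.42 in shTbx3. In +/+ Vim stood at 130 FPKM and Snai1 at 3.25. All 8 genes were lower in shLuc than in +/+, 4 of them at least 2-fold (5.88% of all genes). None of those 8 passed 2-fold between N/N and +/+.

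Transcription factors and targets often linked with keratin genes and the cytoskeleton gave unequal counts. Of 16 AP-1 and Ets factors 15 had a value and 1 was at least 2-fold higher in shTbx3, Jun at 2.75 and 7.68 FPKM, with a median of 0.52. In +/+ Jun stood at 31.2 FPKM. Of the 15, 7 were at least 2-fold lower in shLuc than in +/+ and 0 higher (5.88% and 5.68% of all genes). Between N/N and +/+ 1 of the 15 was at least 2-fold lower, Atf3 at 7.46 and 2.95 FPKM, and 0 were higher. Of all genes 1.92% were lower and 1.37% higher. The median of the list was -0.29 beside -0.03 over all genes. Of 23 listed targets and partners of YAP and SRF 21 had a value, and 10 were at least 2-fold higher in shTbx3 and 0 lower (2.81% and 0.987% of all genes), with a median of 0.96 beside 0.13 over all genes. The matricellular gene Cyr61 (5.78 and 67.9 FPKM), the actin-binding Tagln (13.7 and 106), smooth muscle actin Acta2 (0.688 and 7.89) and the junction protein Amotl2 (9.58 and 52.3) led. In +/+ Cyr61 stood at 71.8 FPKM and Amotl2 at 57.9, while Tagln and Acta2 stood at 7.86 and 3.31. The summed level of the 21 was 547 FPKM in +/+, 242 in shLuc and 609 in shTbx3. Of the 21, 7 were at least 2-fold lower in shLuc than in +/+ and 0 higher (5.88% and 5.68% of all genes). The hairpin differences of this list are thus set against a control in which it read lower than in +/+. In N/N against +/+ 3 of the 21 were at least 2-fold higher and 0 lower (1.37% and 1.92% of all genes). They were Acta2 (3.31 and 28.1 FPKM), Tagln (7.86 and 31.6) and Thbs1 (13.2 and 29.2).

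Among markers of other cell types, those of trophectoderm and of the streak had members past 2-fold in shTbx3, where 2.81% of all genes were higher and the median gene differed by 0.13. Of 18 trophectoderm markers 12 had a value, and 5 of them were at least 2-fold higher in shTbx3 and 0 lower, with a median of 0.77. Their summed level was 165 FPKM in +/+, 209.5 in +/N, 284 in N/N, 99.0 in shLuc and 183 in shTbx3. Cldn4 made up most of these sums, 213 FPKM in N/N and 104 in shTbx3, and without it, an alternative chosen after seeing the data, the other 11 summed to 58.7 FPKM in +/+, 59.6 in +/N, 70.6 in N/N, 41.7 in shLuc and 78.6 in shTbx3. N/N was the highest library with Cldn4 and shTbx3 without it. The defining factors Cdx2, Elf5, Gata3 and Tfap2a had no value in the bulk table, and Eomes stood at 1.25 FPKM in shLuc and 4.68 in shTbx3. Eomes and Hand1, both past 2-fold, are also on the streak list below, so the counts of these lists are not separate. Krt7, likewise past 2-fold, is itself a keratin. Of 14 markers of primitive streak and mesoderm 8 had a value and 7 were at least 2-fold higher in shTbx3, with a median of 2.41. Their summed level was 7.90 FPKM in +/+, 9.75 in +/N, 9.73 in N/N, 4.33 in shLuc and 107 in shTbx3, highest in the library where the keratins were highest. T led, at 0.605 FPKM in shLuc and 35.5 in shTbx3, with Fgf8 (0.320 and 25.4) and Sp5 (0.740 and 26.0), and Mixl1 and Gsc had no value in the bulk table. The part of cells with these markers in the keratin values was not tested.

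The remaining marker lists were read against the same shares, with 1.37% of all genes higher and 1.92% lower in N/N against +/+. Of 13 extraembryonic endoderm markers with a value 0 passed 2-fold in shTbx3 against shLuc (median 0.14), and in N/N against +/+ 9 were at least 2-fold lower and 0 higher (median -1.37), the basement membrane collagen Col4a1 at 35.1 and 3.75 FPKM among them. Their summed level ran from 74.5 FPKM in shLuc to 243 in +/+. Of 8 fibroblast markers with a value, 2 were at least 2-fold higher in shTbx3 (median 0.40) and 5 in N/N (median 1.13). Their summed level was 9.20 FPKM in shLuc, where Postn and Lox were listed at 0, 20.3 in shTbx3, 51.7 in +/+, 119 in +/N and 123 in N/N. Of 11 markers of surface ectoderm and stratified epithelium only Krt17 and Krt10 had a value, of which 1, Krt17, was past 2-fold in shTbx3 (median 0.95), and the defining Trp63, Krt5 and Krt14 had none. Among 10 pluripotency markers 0 passed 2-fold between the hairpin libraries (median 0.32) and 1, Klf4, was at least 2-fold lower in N/N (88.9 and 36.5 FPKM).

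Within 200 kb of the Krt8 start the annotation places 15 other coding genes, 8 of them keratins, and 7 of the 15 had a value in the bulk table. Only Krt18 among those 7 was past 2-fold between the hairpin libraries. The translation factor Eif4b differed by -0.13, Tenc1 by 0.64, Spryd3 by 0.63, the sterol acyltransferase Soat2 by -0.25, Csad by -0.26 and Zfp740 by -0.32. Within 200 kb of the Krt19 start 19 other coding genes are annotated, 14 of them keratins, and 3 had a value. They were Krt17 (1.49), Krt42 (0.71) and the translation factor Eif1 (0.31). Krt8 and Krt18 were chosen for their difference in this comparison and the neighbours were not, so nothing is read from the contrast between them.

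**Figure D3:**
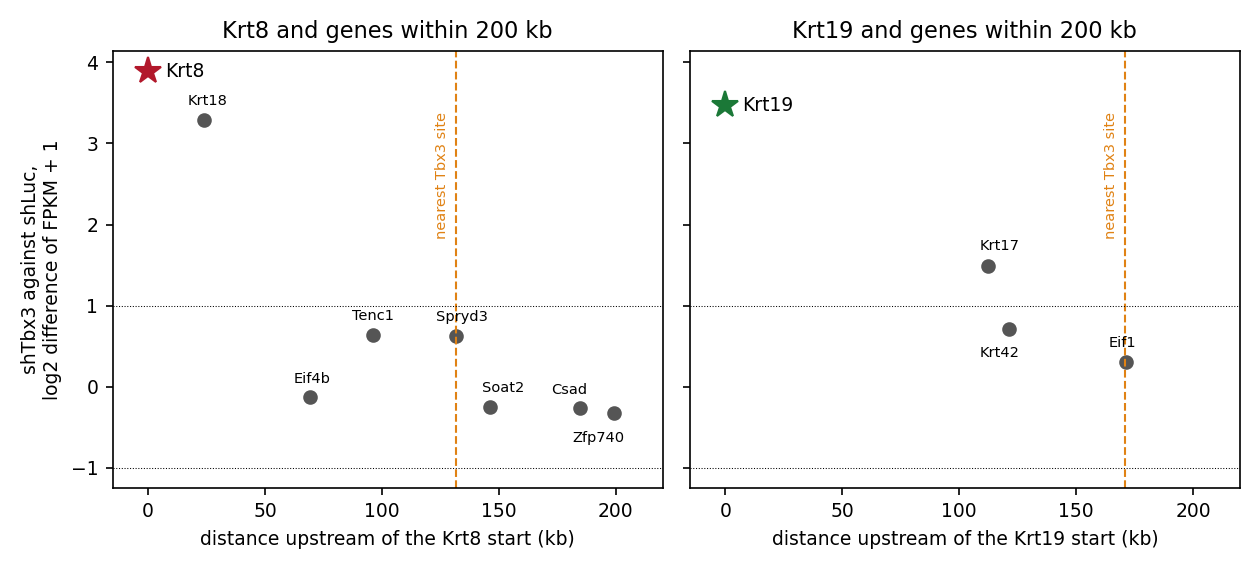
Log2 difference of FPKM + 1 in shTbx3 against shLuc for Krt8 (left) and Krt19 (right) and for genes with a bulk value whose start lies within 200 kb, by distance upstream of the keratin start in kb; the dashed line is the nearest Tbx3 site and dotted lines are 2-fold. Krt8 and Krt18 lie at 3.90 and 3.29 and the other genes on the left between -0.32 and 0.64, while Krt17 on the right lies at 1.49.

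No Tbx3 site lay close to any of the 3 keratins. Of the 3078 deposited sites, 0 were within 5, 20, 50 or 100 kb of a keratin start, where 4.36%, 9.59%, 18.4% and 30% of 22238 coding genes had one. The nearest site to Krt8 and Krt18 was the same, chr15:101966270-101967039 over the start of Spryd3, with a score of 65.15 that ranked 1997 of 3078. It lay 131.497 kb upstream of the Krt8 start and 107.623 kb downstream of the Krt18 start. The nearest site to Krt19 was chr11:100180921-100181407 over the start of Eif1, with a score of 60.46 (rank 2263), and it lay 170.942 kb upstream. Of all coding genes, 63.9%, 68.5% and 57.3% had their nearest site at least as far away as Krt8, Krt18 and Krt19. Sites with a score of 100 or more lay within 20 kb of 3.08% of coding genes and of 0 keratins. Spryd3 and Eif1, whose starts these sites cover, were not past 2-fold between the hairpin libraries.

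Genes of the keratin-linked lists were read against the 9.59% of coding genes with a site within 20 kb of the start. Of 18 placed desmosome genes 0 had one, and of 33 epithelial genes 5 had one, namely Cdh1, Cldn3, Cldn4, Prss8 and Elf3. Nothing particular to either list is read from these counts. Cldn4 had 4 such sites, 1 of them over its start with a score of 50.05, and Cldn3 had 1 at 196 bp from its start with a score of 68.62. Cldn3 and Cldn4 were at least 2-fold higher in N/N, and neither they nor Prss8 were past 2-fold between the hairpin libraries. T, whose profile was most like that of Krt8, had a site of score 77.7 at 119 bp from its start. It was the only 1 of 14 placed streak genes with a site within 20 kb, and nothing is read from it.

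In the single-cell table the keratins were readily measured in the pool and seldom in single cells. The pool held Krt8 at 10.7 FPKM, Krt18 at 16.5, Krt19 at 18.1 and Tbx3 at 25.8, levels scaled apart from the bulk table. Krt8 reached 1 FPKM in 3 of 45 cells (6.67%, with an exact 95% interval by Clopper-Pearson of 1.40% to 18.3%), Krt18 in 1 (2.22%, 0.0562% to 11.8%) and Krt19 in 1 (2.22%, same interval). These intervals cover counting error only, and the cells are 1 sample. An exact 0 in this table can be a failed estimate: Pou5f1, which every such cell is known to use, stood at 1370 FPKM in the pool and reached 1 FPKM in only 11 of 45 cells, and Gapdh stood at 2.65 FPKM in the pool and reached it in 4. Most cells are therefore said only to be listed at 0 for the keratins.

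The cells with a keratin value were mostly different cells. Cell 61 had Krt8 at 1.04 FPKM and Krt19 at 6.60, cell 67 had Krt8 at 1.20, cell 69 had Krt8 at 0.173, cell 3 had Krt8 at 6.42 and cell 30 had Krt18 at 49.7. The other 40 cells were listed at 0 for all 3, 4 cells had exactly 1 of the keratins, 1 cell had a pair, and 0 cells had all 3. By counting error alone (3 counts of 45) that allows up to 6.67% of cells with a value for all 3 in this table, and it sets no limit on cells that express them, since a 0 can be a failed estimate. The cell with Krt18 thus had no value of its type II partner. Over the 45 cells Pearson r was 0.29 and Spearman rho 0.47 between Krt8 and Krt19, resting on 1 shared cell, and with so few cells no relation is read from them. Tbx3 in these 5 cells was 0.138, 0, 0.0571, 0 and 0.943 FPKM. Over all 45 cells Tbx3 was above 0 in 21 and reached 1 FPKM in 13. The 5 cells were taken at any keratin value above 0, and with so few no relation to Tbx3 is read.

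The number of cells was set beside other genes at that level in the pool. Of 2112 genes at 10 to 20 FPKM in the pool, the median gene reached 1 FPKM in 4 cells (quartiles 2 and 8). Krt8 lay at or above 45.3% of them in its number of cells, and Krt18 and Krt19 each at or above 22.3%, below the lower quartile. The mean over the 45 cells was 1.83% of the pool level for Krt8, 6.71% for Krt18 and 0.809% for Krt19, while the median of those 2112 genes was 35.2% (quartiles 6.92% and 104%). All 3 keratins were thus below the lower quartile in this percentage. It is not a true share of the pool level, since Actb stood at 1783% of its own. The means of Krt18 and Krt19 each rest on 1 cell, for Krt18 a cell at 49.7 FPKM. The cells showed between 1642 and 3295 genes at 1 FPKM or more, and the pool showed 11678. The median was 2446 genes in the first 23 columns of cells and 1973 in the last 22, and the part of depth in the keratin counts was not tested.

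**Figure D4:**
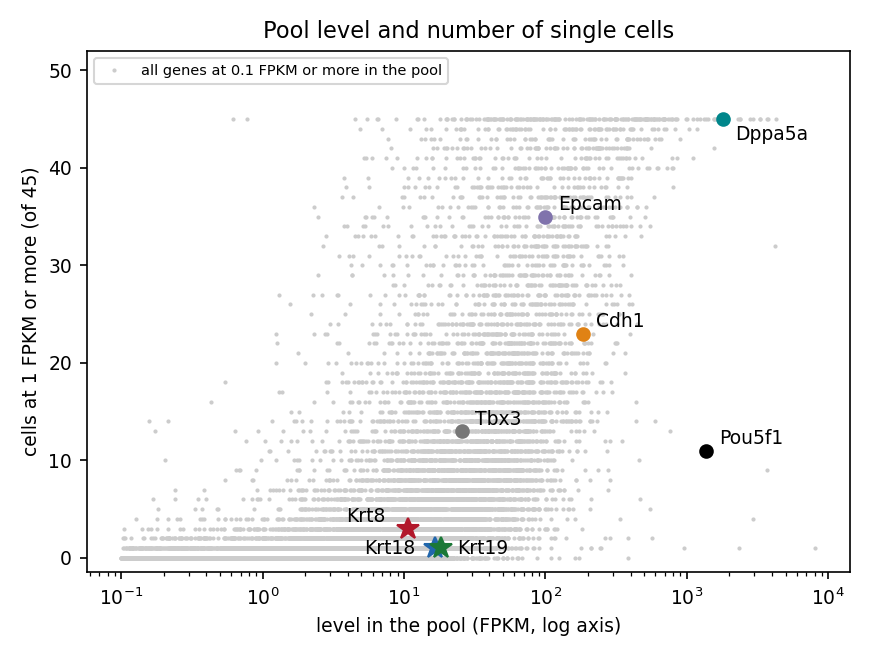
Number of cells, of 45, at 1 FPKM or more (vertical) against the level in the pool in FPKM (horizontal, log axis), with 1 point per gene at 0.1 FPKM or more in the pool, the 3 keratins as stars and 5 other named genes as large circles. Krt8 lies at 10.7 FPKM and 3 cells, Krt18 at 16.5 FPKM and 1 cell and Krt19 at 18.1 FPKM and 1 cell, among genes whose median at 10 to 20 FPKM is 4 cells.

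Other keratins and junction genes were seen in the same cells. The table held 52 keratin genes. Of the 49 others, 3 reached 1 FPKM in the pool, 5 reached it in any cell and 21 were listed at 0 throughout. Krt17 reached it in 6 cells and stood at 18.8 FPKM in the pool, and Krt42 reached it in 4 cells and stood at 26.5 FPKM. Krt7 reached it in 1 cell, at 354 FPKM, with a pool level of 0.895 FPKM. Of 19 desmosome and anchoring genes 7 reached 1 FPKM in 25% of cells or more, led by Jup in 30 cells, while Dsp was so in 1 cell. Among epithelial genes 6 of 33 were, with the adhesion molecules Epcam in 35 cells and Cdh1 in 23. Their pool levels, 55.2 FPKM for Jup, 99.8 for Epcam and 185 for Cdh1, were well above those of the keratins. Of the same lists, 6 of 19 and 9 of 33 genes reached 1 FPKM in no cell, and the median gene did so in 3 and 2 cells.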

How the data were processed

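The authors deposited bulk and single-cell values as FPKM. Per the submitters' processing notes they used TopHat with Cufflinks, Cuffdiff or Cuffnorm on mm9. The score of each Tbx3 site is that of the deposited list. The notes name HOMER and Bowtie 1.0, and the tool behind the score is not stated by them. Tables were scaled separately. Groups came from the labels.

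The difference log2((a + 1)/(b + 1)) was taken for 5 pairs of libraries, with a pseudocount of 1, a filter of 1 FPKM in either library and a call at 2-fold. With 1 library per group no test was possible. Cells were counted at 1 FPKM. Sites were placed from gene starts on the mm9 annotation. Transcript words of 26 bases were searched in mm9. Promoters came from RefSeq (GRCm38.p6). Python 3.11.15, numpy 2.4.6, pandas 2.3.3, scipy 1.17.1 and numba 0.67.0 were used. The 2-fold calls were tested on simulated data. The likeness order was run only on a copy of the Krt18 profile without noise, which had to return Krt18 first, so it was not tested. The other calculations were not tested either. The keratins and the 12 gene lists were chosen with earlier results of these data known. Genes were named by role, list rank (the 4 largest differences per list and comparison), likeness (the 5 nearest) or position (within 200 kb). Genes named beyond these, such as Nes and Gapdh, were chosen after their values were seen, and 1 gene that the rule gives is not reported here. Alternatives changed the pseudocount, filter, scaling, cell threshold and window.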

Additional observations from a re-analysis of the deposited data

Results flagged for a closer look

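Krt8 differed in opposite directions in the sets of libraries: its log2 difference was 3.90 in shTbx3 against shLuc and -0.19 in N/N against +/+. Each comparison has 1 library a side, and the difference between them was not tested. Krt8 was chosen by its hairpin difference. Its difference in N/N against +/+ was small, ranking 7905 of 11478 from the highest, with a median of -0.03 over all genes. No contrast between the sets is therefore read from these values.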

How the results depend on the processing

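Of 60 alternative values of the keratin log2 differences, 59 kept their direction and their side of 2-fold, 0 reversed and 1 passed 2-fold: Krt19 in shLuc against +/+ was -1.02 when libraries were scaled without small RNA genes. In shTbx3 against shLuc the alternatives ran from 3.49 to 4.01 for Krt8, 2.98 to 3.38 for Krt18 and 3.01 to 3.62 for Krt19. Counts over all genes moved more. With a pseudocount of 0.1, higher and lower genes were 262 and 358 in N/N against +/+, 128 and 221 in +/N against +/+ and 536 and 215 in shTbx3 against shLuc, and 54 were lower in N/N against +/N. With a pseudocount of 5 they were 64 and 101, 39 and 80, and 109 and 28 in the first 3 of these, and 348 and 349 in shLuc against +/+. Without small RNA genes in scaling and count, they were 75 and 70 in +/N against +/+ and 5 and 7 in N/N against +/N. In the same setting they were 181 and 154 in shTbx3 against shLuc and 438 and 826 in shLuc against +/+. With the median set to 0, 171 genes were lower in shTbx3. The cause was not tested. At 10 FPKM, 0% of cells held Krt8 or Krt19, and 0% held Krt18 in the first 23 columns or Krt19 in the last 22. The site counts stayed at 0 in the 4 alternatives run. No paired analysis was possible because each group has 1 library. Fragment totals are not given in the sources used here, so the precision of each level is unknown.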
